A study of Mus musculus with 12 samples.

Results

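The cadherins Cdh1 and Cdh2, the epithelial adhesion gene Epcam, the mesenchymal genes Vim and Fn1, and the transcription factor genes Snai1, Snai2, Zeb1, Zeb2 and Twist1 were examined in mouse embryonic stem cells (mESCs). These 10 genes were chosen by name, as the genes most often used to place cells between an epithelial and a mesenchymal state. They are 10 of the 39017 genes in the table, and all 10 were among the 17885 genes that passed the filter on low counts.

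Epithelial cells hold together through E-cadherin (Cdh1) and through the adhesion molecule Epcam. In an epithelial-to-mesenchymal transition (EMT), as in gastrulation, cells lower E-cadherin, raise N-cadherin (Cdh2), vimentin (Vim) and fibronectin (Fn1), and leave the cell sheet. Transcription factors of the Snail, Zeb and Twist families drive this change, and the Snail and Zeb proteins repress Cdh1 by binding E-box motifs. mESCs express Cdh1 strongly and grow as compact colonies, and E-cadherin is needed for that growth.

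Poly(A) RNA was sequenced from 2 lines in 2 media, and each of the 4 groups had 3 replicates that the labels call biological. J1 is a male wild-type line. 3B3-3l, called 3B3L in the study's text, lacks Dnmt3a and Dnmt3b (Dnmt3a-/-, Dnmt3b-/-) and carries transgenes for Dnmt3b and Dnmt3l under the CAG promoter, so that DNA methylation is largely kept in 2i. Serum medium held fetal calf serum with LIF, at 500 U/ml by the labels. The study's methods give serum the same LIF concentration as 2i, so whether it differed between media is not settled here. 2i medium held no serum but the MEK inhibitor PD0325901 (1 µM), the GSK3 inhibitor CHIR99021 (3 µM) and LIF at 1000 U/ml. LIF was thus common to all 4 groups. By the study's methods, the base medium and its supplements also differed between serum and 2i. Effects of the medium thus cannot be divided between the inhibitors, the serum and the base. In serum, J1 cells grew on SNLP feeder cells that were depleted before analysis, and 3B3-3l cells grew on gelatin. Line and culture surface thus cannot be told apart in serum. The methods name feeders for J1 in serum only. The 2i effect in J1 and the difference of the 2i effect between lines therefore cannot be told apart from feeders either. 3B3-3l is a single selected line, so its differences from J1 cannot be told apart from those of that line's history. The study compared these groups to ask whether 3B3-3l cells in 2i have the transcriptome of their medium or of their serum-like epigenome.

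Libraries held 37050652 to 44515395 estimated reads, and a count of 3 in a library corresponded to 0.0674 to 0.081 CPM, a count scaled to a common library total. The CPM values given below for genes also carry TMM factors, except those per kb. The floor covers counting error only, as the reads have no molecular identifiers. ES cell markers were high in every group, with a summed level over 8 genes between 4601 and 6414 CPM. Of 5 defining fibroblast markers, Dcn, Lum, Postn and Col6a3 had means under 1 CPM in every group, and Dcn and Lum were at 0 in all 2i libraries. The other, Pdgfrb, had means of 6.31 CPM in J1 serum, 19.4 in J1 2i, 7.39 in 3B3-3l serum and 7.33 in 3B3-3l 2i. The 14 fibroblast markers together ranged from 29.97 to 32.8 CPM in J1 serum, 27.5 to 30.2 in J1 2i, 37.04 to 40.4 in 3B3-3l serum and 16.03 to 16.3 in 3B3-3l 2i. The similar sums in J1 held opposite changes: of 9 tested markers, 2 were higher in 2i, Pdgfrb among them, and 5 lower, with a median log2 fold change of -2.28. In 3B3-3l 6 were lower and 3 not called, with a median of -2.33. Thy1, for one, had means of 11.3 CPM in J1 serum and 2.32 in J1 2i, and 14.1 and 5.17 in 3B3-3l. Of all genes tested, 33.2% were called higher and 32.9% lower in 2i in J1, and 32.7% in each direction in 3B3-3l. In bulk RNA, fewer cells of a type and less RNA per cell cannot be told apart.

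The 10 genes did not move in one direction with the medium. In 2i, the epithelial gene Cdh1 and the mesenchymal genes Vim and Fn1 were higher, while the epithelial gene Epcam, the mesenchymal gene Cdh2 and the transcription factor genes Zeb2 and Twist1 were lower, in both lines. In J1, 5 of the 10 genes were called higher in 2i and 4 lower, 9 in all, where 66.1% of all genes tested were called (33.2% higher, 32.9% lower). In 3B3-3l, 7 were called, 3 higher and 4 lower, where 65.4% of all genes were called (32.7% in each direction). The 7 were also among the 9 of J1, in the same direction, as were 47.4% of all genes, though the call of Cdh1 in J1 was lost under 10 of 19 alternatives. The libraries of the 2 media did not overlap for 8 of the 10 genes in J1 and 8 in 3B3-3l, beside 68.6% and 69.6% of all genes. The share of the 10 genes called was thus above that of all genes in J1 and close to it in 3B3-3l. The median log2 fold change of the 10 genes was -0.08 in J1 and 0.03 in 3B3-3l, beside 0.01 over all genes in each line.

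**Figure D1:**
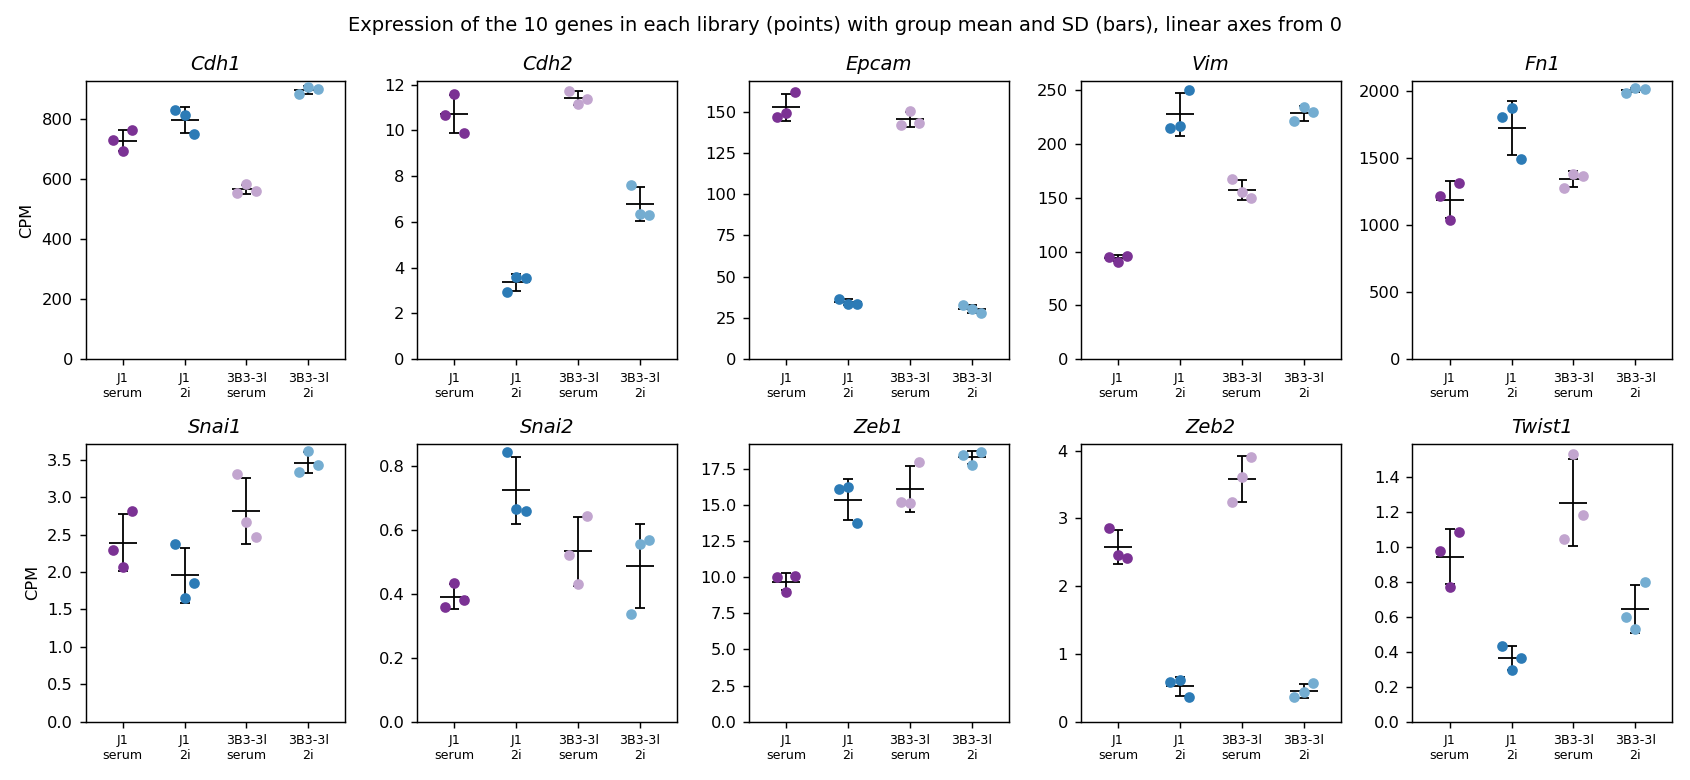
Expression in CPM (linear axes from 0, a separate scale for each gene) of the 10 genes in the 12 libraries, with points for libraries and bars for the group mean and SD (n = 3). Epcam and Zeb2 were several times lower in all 2i libraries of both lines, Cdh2 was low in J1 2i and intermediate in 3B3-3l 2i, and Vim was lowest in J1 serum.

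**Figure D2:**
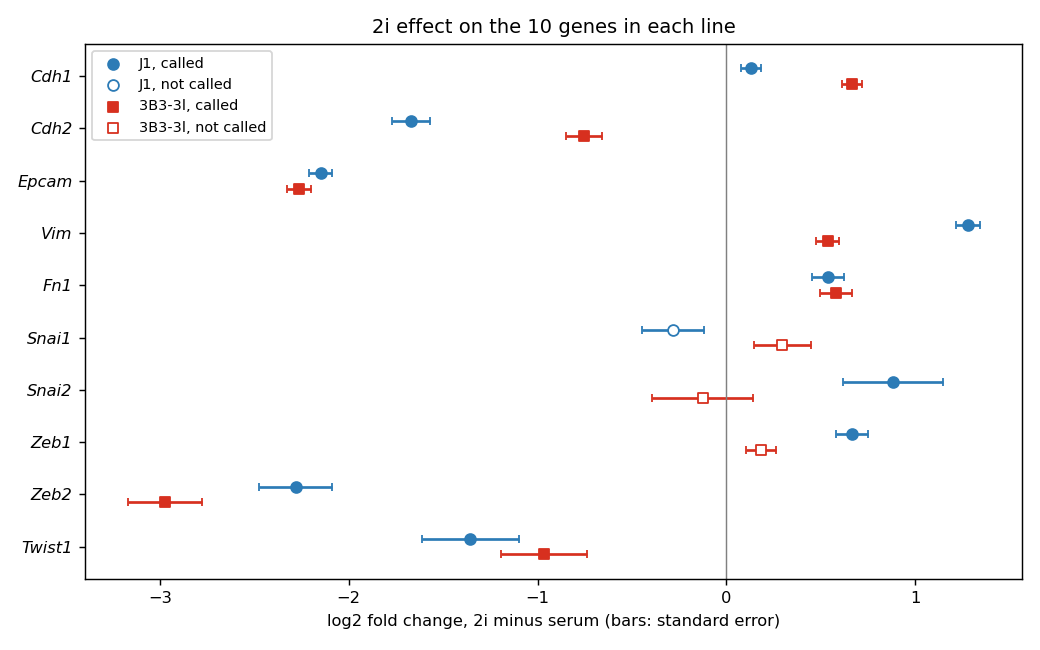
Log2 fold change of 2i against serum for each gene (x axis) in J1 (circles) and 3B3-3l (squares), with standard errors as bars and filled symbols for genes called at an edgeR adjusted p under 0.05. The symbols of the lines stand apart for Cdh1 (0.13 and 0.67), Cdh2 (-1.67 and -0.75), Vim (1.28 and 0.54), Zeb1 (0.67 and 0.18) and Snai2 (0.88 and -0.13). For these genes the difference between lines was called. Snai1 (-0.28 and 0.30) and Zeb2 (-2.28 and -2.97) also stand apart, with no called difference. The symbols lie close together for Epcam and Fn1.

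Cdh1 (chr8:106603350-106670247, ENSMUSG00000000303, GRCm38), the gene of E-cadherin, stood at 728, 691 and 763 CPM in the J1 serum libraries and 829.6, 812 and 748 CPM in those of J1 2i. It stood at 551, 582 and 559.9 CPM in 3B3-3l serum and 883, 906 and 898 CPM in 3B3-3l 2i. The J1 media overlapped, while every 3B3-3l 2i library lay above, and every 3B3-3l serum library below, all libraries of J1. In 3B3-3l Cdh1 rose in 2i by a log2 fold change of 0.67 ± 0.05 (adjusted p = 1.11e-08 by edgeR), or 1.59-fold. In J1 the log2 fold change was 0.13 ± 0.05 (adjusted p = 0.0349 by edgeR), and this call was lost under 10 of 19 alternatives, where the adjusted p of edgeR reached 0.151. Those alternatives included leaving out J1 serum replicate 1 (0.13) or 2 (0.09), and J1 2i replicate 1 (0.10) or 2 (0.12).

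The 2i effect on Cdh1 was larger in 3B3-3l than in J1, by 0.53 ± 0.07 (adjusted p = 4.72e-05 by edgeR) on the log2 scale. Compared at the same medium, Cdh1 was lower in 3B3-3l than in J1 in serum (-0.37 ± 0.05, adjusted p = 4.65e-05 by edgeR) and higher in 2i (0.17 ± 0.05, adjusted p = 0.0134 by edgeR). The call in 2i was lost without J1 2i replicate 3 (0.13) or 3B3-3l 2i replicate 2 (0.14).

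Epcam (chr17:87635979-87651127, ENSMUSG00000045394), which encodes an epithelial cell adhesion molecule that is also a marker of pluripotent cells, fell in 2i in both lines. It measured 147, 149 and 162 CPM in J1 serum and 36.3, 33.6 and 33.2 CPM in J1 2i. The 3B3-3l libraries held 142, 150.5 and 143 CPM in serum and 32.6, 30.1 and 28.1 CPM in 2i. No 2i library came near a serum library in either line, and the spread within groups was small beside the gap. The log2 fold change was -2.15 ± 0.06 (adjusted p = 9.56e-14 by edgeR) in J1, or 4.44-fold, and -2.26 ± 0.06 (adjusted p = 4.73e-14 by edgeR) in 3B3-3l, or 4.797-fold. These effects were not called different (-0.11 ± 0.09, adjusted p = 0.336 by edgeR). Between lines Epcam was not called in serum (-0.07 ± 0.06, adjusted p = 0.366 by edgeR) and was slightly lower in 3B3-3l in 2i (-0.18 ± 0.06, adjusted p = 0.0264 by edgeR), a call that was lost without J1 2i replicate 1 (-0.14) or 3B3-3l 2i replicate 3 (-0.13).

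Since Snail and Zeb proteins bind the E-box sequence CACCTG, the 250 bases before the transcription start of the genes were searched for it and for its reverse complement CAGGTG. The windows are from a set of RefSeq starts (GRCm38.p6), which held 8 windows for 5 of the genes: Epcam, Snai1, Vim, Twist1 and Zeb2. The set used had no window for Cdh1, Cdh2, Fn1, Snai2 and Zeb1, so these genes were not searched. Epcam held 2 matches, the first bases of which lay 187 and 19 bases before the start, and Snai1 held 1, at 126 bases. Vim, Twist1 and the Zeb2 windows held none, and 17.2% of 32851 windows of the same length held at least 1. The window of Epcam (chr17:87635729-87635978, plus strand) and that of Snai1 (chr2:167537945-167538194, plus strand) are shown for their matches, in capitals. That of Vim (chr2:13574061-13574310, plus strand) is shown as a window with no match. Vim rose in 2i, but Twist1 and Zeb2, also with no match, fell as Epcam did. A relation between matches and expression was not tested. A match is a run of letters and not a measured binding site.
Epcam: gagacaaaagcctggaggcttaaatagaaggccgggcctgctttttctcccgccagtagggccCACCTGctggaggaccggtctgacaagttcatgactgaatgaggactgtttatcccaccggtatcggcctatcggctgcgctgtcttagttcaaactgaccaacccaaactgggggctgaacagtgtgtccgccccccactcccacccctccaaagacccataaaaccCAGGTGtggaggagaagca
Snai1: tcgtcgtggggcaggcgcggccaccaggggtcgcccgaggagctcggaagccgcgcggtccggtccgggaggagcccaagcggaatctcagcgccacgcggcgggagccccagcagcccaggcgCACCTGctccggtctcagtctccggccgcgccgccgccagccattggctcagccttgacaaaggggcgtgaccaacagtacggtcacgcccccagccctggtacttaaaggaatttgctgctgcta
Vim: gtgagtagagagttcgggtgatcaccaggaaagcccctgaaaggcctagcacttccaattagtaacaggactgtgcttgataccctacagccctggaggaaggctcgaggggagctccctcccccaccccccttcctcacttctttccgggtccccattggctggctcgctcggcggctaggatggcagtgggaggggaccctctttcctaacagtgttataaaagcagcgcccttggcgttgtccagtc

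Cdh2 (chr18:16588877-16809246, ENSMUSG00000024304), the gene of N-cadherin, was low in all groups and fell further in 2i. Its values were 10.7, 11.6 and 9.89 CPM in J1 serum and 2.94, 3.602 and 3.56 CPM in J1 2i. In 3B3-3l they were 11.7, 11.1 and 11.4 CPM in serum and 7.62, 6.35 and 6.31 CPM in 2i. The serum groups overlapped, and 3B3-3l 2i lay between them and J1 2i with no overlap on either side. The log2 fold change in 2i was -1.67 ± 0.10 (adjusted p = 6.62e-10 by edgeR) in J1, or 3.18-fold, and -0.75 ± 0.09 (adjusted p = 3.14e-06 by edgeR) in 3B3-3l, or 1.69-fold. The difference between these effects was 0.92 ± 0.14 (adjusted p = 0.000127 by edgeR). Accordingly Cdh2 was 2.01-fold higher in 3B3-3l than in J1 in 2i (1.01 ± 0.11, adjusted p = 1.48e-06 by edgeR), and not called between lines in serum (0.09 ± 0.09, adjusted p = 0.467 by edgeR).

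The ratio of Cdh1 to Cdh2 falls in a cadherin switch. It was taken from levels per length (CPM per kb of effective transcript length, without TMM factors). It was 65.0, 56.9 and 72.0 in the J1 serum libraries and 261, 209 and 198 in J1 2i, a mean of 64.6 ± 7.51 and 222.9 ± 33.5 (SD, n = 3). In 3B3-3l it was 44.9, 49.5 and 46.3 in serum and 108.6, 133.6 and 131.0 in 2i, a mean of 46.9 ± 2.36 and 124.4 ± 13.8. Cdh1 exceeded Cdh2 in every library, the ratio was higher in 2i than in serum in both lines, and it was lower in 3B3-3l than in J1 in each medium, with no overlap between any of the 4 groups. As a score over chosen genes, the ratio carries no test.

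**Figure D3:**
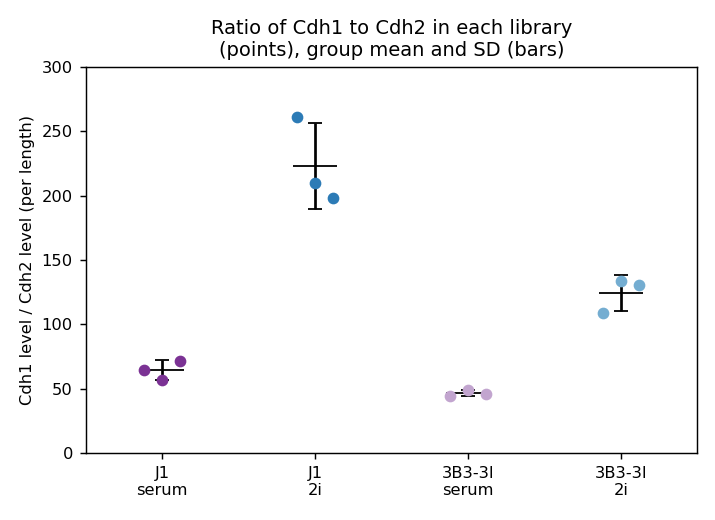
Ratio of the Cdh1 level to the Cdh2 level per length (y axis, linear from 0) in the 12 libraries, with points for libraries and bars for the group mean and SD (n = 3). The 4 groups do not overlap, from 3B3-3l serum (mean 46.9) through J1 serum (64.6) and 3B3-3l 2i (124.4) to J1 2i (222.9).

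Vim (chr2:13574311-13582826, ENSMUSG00000026728), which encodes the intermediate filament vimentin, rose in 2i in both lines. It stood at 94.9, 90.6 and 95.9 CPM in J1 serum and 215, 217 and 251 CPM in J1 2i. The corresponding 3B3-3l values were 168, 155 and 149.5 CPM and 221, 234 and 230.2 CPM. The libraries of the lines overlapped in 2i, while in serum all 3B3-3l libraries were above those of J1. The 2i effect was 1.28 ± 0.06 (adjusted p = 4e-11 by edgeR) in J1, or 2.43-fold, and 0.54 ± 0.06 (adjusted p = 1.02e-06 by edgeR) in 3B3-3l, or 1.45-fold, and their difference was -0.74 ± 0.09 (adjusted p = 1.02e-05 by edgeR). Between lines Vim was higher in 3B3-3l in serum by 0.75 ± 0.06 (adjusted p = 2.53e-07 by edgeR). In 2i it was not called (0.01 ± 0.06, adjusted p = 0.958 by edgeR) and its sign changed in 11 of 19 alternatives, between -0.04 and 0.08.

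Fn1 (chr1:71585473-71653280, ENSMUSG00000026193), the gene of the matrix protein fibronectin, also rose in 2i. Its levels were 1217, 1039 and 1313 CPM in J1 serum and 1809.8, 1870.0 and 1496 CPM in J1 2i. For 3B3-3l they were 1275, 1382 and 1369 CPM in serum and 1988, 2019.9 and 2015 CPM in 2i. The media did not overlap within a line, and the serum groups of the lines did. The log2 fold change was 0.54 ± 0.08 (adjusted p = 3.77e-05 by edgeR) in J1 and 0.58 ± 0.08 (adjusted p = 1.59e-05 by edgeR) in 3B3-3l, and the effects were not called different (0.04 ± 0.12, adjusted p = 0.803 by edgeR). In serum the lines were not called different (0.17 ± 0.08, adjusted p = 0.116 by edgeR), but they were without J1 serum replicate 3 (0.25). In 2i Fn1 was higher in 3B3-3l (0.22 ± 0.08, adjusted p = 0.0443 by edgeR), and this call was lost under 10 of 19 alternatives. Those included leaving out J1 serum replicate 1 (0.19) or 3 (0.19), J1 2i replicate 3 (0.13), 3B3-3l serum replicate 2 (0.22), or 3B3-3l 2i replicate 1 (0.23), 2 (0.19) or 3 (0.22).

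The 5 transcription factor genes did not move together. Per length they were far below Cdh1, Epcam, Vim and Fn1, while Zeb1, whose reads were assigned to transcripts only in part, and Snai1 had group means above that of Cdh2 in 2i in both lines. Snai1 (chr2:167538195-167542814, ENSMUSG00000042821) and Snai2 (chr16:14705852-14709395, ENSMUSG00000022676) encode the zinc finger repressors Snail and Slug. Snai1 stood at 2.29, 2.07 and 2.82 CPM in J1 serum and 2.37, 1.65 and 1.85 CPM in J1 2i, and at 3.31, 2.67 and 2.47 CPM in 3B3-3l serum and 3.34, 3.61 and 3.43 CPM in 3B3-3l 2i. The J1 media overlapped, and 3B3-3l 2i lay just above 3B3-3l serum. Neither 2i effect was called, at -0.28 ± 0.16 (adjusted p = 0.14 by edgeR) in J1 and 0.30 ± 0.15 (adjusted p = 0.101 by edgeR) in 3B3-3l. Each was called when a single library was left out, J1 2i replicate 1 (-0.44) and 3B3-3l serum replicate 1 (0.43). The difference between the effects was 0.58 ± 0.22 (adjusted p = 0.057 by edgeR) and not called, though it was without either of those libraries (0.74 and 0.71) and with no filter on low counts (0.59). In 2i Snai1 was 1.77-fold higher in 3B3-3l than in J1 (0.82 ± 0.16, adjusted p = 0.000505 by edgeR), with no overlap, and in serum it was not called (0.24 ± 0.16, adjusted p = 0.255 by edgeR).

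Snai2 had the lowest level per length of the 10 genes in serum and held 14 to 37 counts in each of the 12 libraries. It stood at 0.358, 0.434 and 0.379 CPM in J1 serum and 0.843, 0.665 and 0.658 CPM in J1 2i, and at 0.522, 0.4299 and 0.643 CPM in 3B3-3l serum and 0.336, 0.556 and 0.567 CPM in 3B3-3l 2i. J1 2i lay above the other groups, which overlapped with each other. Snai2 rose in 2i in J1 (0.88 ± 0.26, adjusted p = 0.00799 by edgeR) and was not called in 3B3-3l (-0.13 ± 0.27, adjusted p = 0.703 by edgeR), where the sign changed without 3B3-3l serum replicate 3 (0.03) or 3B3-3l 2i replicate 1 (0.08). The difference between the effects was -1.01 ± 0.38 (adjusted p = 0.0497 by edgeR), at the edge of the threshold, and it was lost under 15 of 18 alternatives, which included leaving out any single library other than 3B3-3l serum replicate 2 or 3B3-3l 2i replicate 3, with values between -1.15 and -0.80. Between lines Snai2 was not called in serum (0.44 ± 0.28, adjusted p = 0.234 by edgeR) or in 2i (-0.57 ± 0.25, adjusted p = 0.0803 by edgeR). In 2i the call appeared among genes with at least 10 counts in every library (-0.60).

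Zeb1 (chr18:5591327-5775468, ENSMUSG00000024238) and Zeb2 (chr2:44983512-45117442, ENSMUSG00000026872) encode related zinc finger homeobox repressors, and in J1 they moved in opposite directions. Zeb1 stood at 10.03, 8.99 and 10.05 CPM in J1 serum and 16.1, 16.2 and 13.7 CPM in J1 2i, and at 15.2, 15.1 and 17.97 CPM in 3B3-3l serum and 18.5, 17.8 and 18.6 CPM in 3B3-3l 2i. J1 serum lay below all other groups. The 2i effect was 0.67 ± 0.09 (adjusted p = 4.54e-06 by edgeR) in J1. In 3B3-3l it was 0.18 ± 0.08 (adjusted p = 0.061 by edgeR), not called, though it was without J1 2i replicate 3 (0.19) or 3B3-3l serum replicate 3 (0.27). The effects differed by -0.48 ± 0.12 (adjusted p = 0.00517 by edgeR), a call that was lost with transcript length offsets (-0.35, adjusted p = 0.206 by edgeR). Zeb1 was higher in 3B3-3l in serum (0.73 ± 0.09, adjusted p = 7.34e-06 by edgeR) and in 2i (0.25 ± 0.08, adjusted p = 0.0197 by edgeR). The call in 2i was lost with length offsets (0.20) and without J1 2i replicate 3 (0.18) or 3B3-3l 2i replicate 1 (0.24), 2 (0.25) or 3 (0.24).

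Zeb2 stood at 2.86, 2.46 and 2.41 CPM in J1 serum and 0.592, 0.619 and 0.366 CPM in J1 2i, and at 3.24, 3.61 and 3.91 CPM in 3B3-3l serum and 0.361, 0.44 and 0.567 CPM in 3B3-3l 2i. All serum libraries were far above all 2i libraries. The fitted change in 2i was -2.28 ± 0.19 (adjusted p = 3.88e-08 by edgeR) in J1, or 4.86-fold, and -2.97 ± 0.20 (adjusted p = 1.46e-09 by edgeR) in 3B3-3l, or 7.86-fold. The effects were not called different (-0.69 ± 0.29, adjusted p = 0.0822 by edgeR), though they were without J1 2i replicate 3 (-0.89). In serum Zeb2 was higher in 3B3-3l (0.47 ± 0.15, adjusted p = 0.0239 by edgeR), a call that was lost with length offsets (0.45) and without J1 serum replicate 2 (0.44) or 3 (0.43) or 3B3-3l serum replicate 2 (0.47) or 3 (0.41). In 2i it was not called between lines (-0.22 ± 0.25, adjusted p = 0.511 by edgeR).

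Twist1 (chr12:33957671-33959831, ENSMUSG00000035799), a basic helix-loop-helix factor of mesoderm and neural crest, fell in 2i in both lines. It stood at 0.979, 0.771 and 1.08 CPM in J1 serum and 0.433, 0.298 and 0.366 CPM in J1 2i, and at 1.04, 1.53 and 1.18 CPM in 3B3-3l serum and 0.601, 0.533 and 0.799 CPM in 3B3-3l 2i. The media did not overlap in J1 or in 3B3-3l. The log2 fold change was -1.36 ± 0.26 (adjusted p = 0.00023 by edgeR) in J1 and -0.97 ± 0.23 (adjusted p = 0.00152 by edgeR) in 3B3-3l, and these were not called different (0.39 ± 0.35, adjusted p = 0.415 by edgeR). In 2i Twist1 was 1.75-fold higher in 3B3-3l (0.80 ± 0.27, adjusted p = 0.0232 by edgeR), and the call was lost without J1 2i replicate 2 (0.68) or 3B3-3l 2i replicate 3 (0.63). In serum it was not called (0.41 ± 0.22, adjusted p = 0.148 by edgeR).

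Between lines, 4 of the 10 genes were called in serum, Vim, Zeb1 and Zeb2 higher and Cdh1 lower in 3B3-3l, where 38.7% of all genes were called (21.5% higher, 17.2% lower). In 2i, 7 were called, Cdh1, Cdh2, Fn1, Snai1, Zeb1 and Twist1 higher and Epcam lower in 3B3-3l, where 45.9% of all genes were called (23% higher, 22.9% lower). The count in 2i fell to 3 without 3B3-3l 2i replicate 3 and to 4 without J1 2i replicate 3 or 3B3-3l 2i replicate 2. Cdh2 and Snai1 remained called in 2i under all 19 alternatives, and in serum Cdh1, Vim and Zeb1 did. The libraries of the lines did not overlap for 4 genes in serum and 8 in 2i, beside 50.9% and 52.6% of all genes. The difference of the 2i effects between lines was called for 5 genes, Cdh1 and Cdh2 with a higher and Vim, Snai2 and Zeb1 with a lower 2i effect in 3B3-3l, where 34.7% of all genes were called (16.3% higher, 18.3% lower). These contrasts share libraries with each other, and their values are therefore given side by side and not as separate support.

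Levels of different genes were compared per length. Fn1 and Cdh1 were the highest of the 10 genes in J1 serum, at 146 ± 16.2 and 177 ± 6.84 CPM per kb (SD, n = 3), and Fn1 led in the other groups, with 239.9 ± 2.96 in 3B3-3l 2i. Vim reached 188 ± 18.1 in J1 2i, close to Cdh1 at 194 ± 14.6, and their SDs overlapped. Epcam stood at 81.7 ± 3.96 in J1 serum, level with Vim at 81.6 ± 0.294, and at 18.7 ± 1.13 in J1 2i. Cdh2 had 2.76 ± 0.218 in J1 serum and 0.88 ± 0.0915 in J1 2i, and Snai1 had 1.65 ± 0.255 and 1.37 ± 0.256. Twist1 and Snai2 had 0.654 ± 0.107 and 0.212 ± 0.0238 in J1 serum. The 5 transcription factor genes thus stayed below 4 CPM per kb in every group mean. Levels of Zeb1 and Zeb2 per length are uncertain, since the transcripts used held only 72.8% to 88.6% of Zeb1 reads and 32.5% to 100% of Zeb2 reads. That of Vim is uncertain too, and with it the comparisons of Vim to Cdh1 and Epcam. It rests on effective lengths of 1119 to 1330 bases, while the protein-coding transcript Vim-001 has 2193 bases. A retained-intron transcript of 520 bases, Vim-004, held 38.7% to 42.7% of Vim in the group means.

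Genes of related function were placed beside the 10 as 3 lists written from general knowledge, with earlier results of these data known. Their counts are given as a description. For comparison, 33.2% of all genes tested were called higher and 32.9% lower in 2i in J1, and 32.7% in each direction in 3B3-3l. Of 35 tested genes of the mesenchymal cytoskeleton, matrix and adhesion, 26 were lower and 7 higher in 2i in J1, and 28 lower and 6 higher in 3B3-3l, with median log2 fold changes of -1.42 and -1.88. Vim and Fn1 thus rose while most of that list fell. Acta2, smooth muscle actin, stood at 10.97 CPM in J1 serum and at 0.03096 CPM in J1 2i, where no library held more than 2 counts, and in 3B3-3l it had 13.1 CPM in serum and 0.0985 in 2i. Thbs1, the matrix protein thrombospondin, had 28.8 CPM in J1 serum and 0.117 in J1 2i, and 31.9 and 0.154 CPM in 3B3-3l. The metalloprotease inhibitor Timp1 rose, by 1.46 ± 0.09 in J1 (adjusted p = 7.43e-10 by edgeR) and 1.36 ± 0.09 in 3B3-3l (adjusted p = 1.71e-09 by edgeR). So did Tagln2, by 0.88 ± 0.06 in J1 (adjusted p = 1.62e-09 by edgeR) and 0.17 ± 0.06 in 3B3-3l (adjusted p = 0.0163 by edgeR). The collagen receptor gene Ddr2 rose in 3B3-3l (1.62 ± 0.11, adjusted p = 2.86e-09 by edgeR) and was not called in J1 (-0.16 ± 0.12, adjusted p = 0.247 by edgeR).

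Of 36 epithelial junction and epithelial regulator genes, 20 were lower and 9 higher in 2i in J1, and 25 lower and 8 higher in 3B3-3l, with medians of -0.35 and -0.49. The list entry Nectin2 was matched through a synonym to the symbol Pvr, so the counts here and between lines include Pvr in its place. It was called higher in 2i in J1 (0.40 ± 0.06) and not called in 3B3-3l. Epcam, which is not a member of the list, moved in the direction of most of it, and Cdh1 in that of the smaller part. Esrp1, an epithelial splicing regulator, fell in both lines, with log2 fold changes of -4.93 ± 0.07 in J1 (adjusted p = 1.25e-16 by edgeR) and -4.87 ± 0.07 in 3B3-3l (adjusted p = 1.06e-16 by edgeR). The claudin gene Cldn6 changed by -3.85 ± 0.09 in J1 (adjusted p = 1.57e-14 by edgeR) and -4.23 ± 0.09 in 3B3-3l (adjusted p = 6.06e-15 by edgeR). The desmosomal cadherin gene Dsg2 rose by 1.62 ± 0.07 in J1 (adjusted p = 5.22e-12 by edgeR) and 1.25 ± 0.06 in 3B3-3l (adjusted p = 7.56e-11 by edgeR), and the protease inhibitor gene Spint1 by 1.34 ± 0.06 (adjusted p = 1.63e-11 by edgeR) and 1.12 ± 0.06 (adjusted p = 9.04e-11 by edgeR).

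Of 25 tested EMT regulators and TGF-β pathway genes, 10 were lower and 7 higher in 2i in J1, and 10 lower and 8 higher in 3B3-3l, with medians of -0.14 and -0.09. The shares called, 68% and 72%, were close to those of all genes. The transcription factor gene Klf8 rose in both lines, by 1.23 ± 0.07 in J1 (adjusted p = 5.27e-10 by edgeR) and 1.48 ± 0.07 in 3B3-3l (adjusted p = 4.29e-11 by edgeR). Skil, a repressor of TGF-β signalling, changed by -2.04 ± 0.07 in J1 (adjusted p = 7.8e-13 by edgeR) and -2.67 ± 0.07 in 3B3-3l (adjusted p = 4.12e-14 by edgeR). The matrix-associated target Ctgf changed by -2.85 ± 0.07 (adjusted p = 1.35e-14 by edgeR) and -1.82 ± 0.06 (adjusted p = 4.93e-13 by edgeR). Smad3 rose by 0.69 ± 0.05 in J1 (adjusted p = 1.35e-08 by edgeR) and 0.36 ± 0.05 in 3B3-3l (adjusted p = 1.54e-05 by edgeR), and Tcf4, an E-box factor, by 0.41 ± 0.06 (adjusted p = 1.85e-05 by edgeR) and 0.78 ± 0.06 (adjusted p = 9.48e-09 by edgeR).

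**Figure D4:**
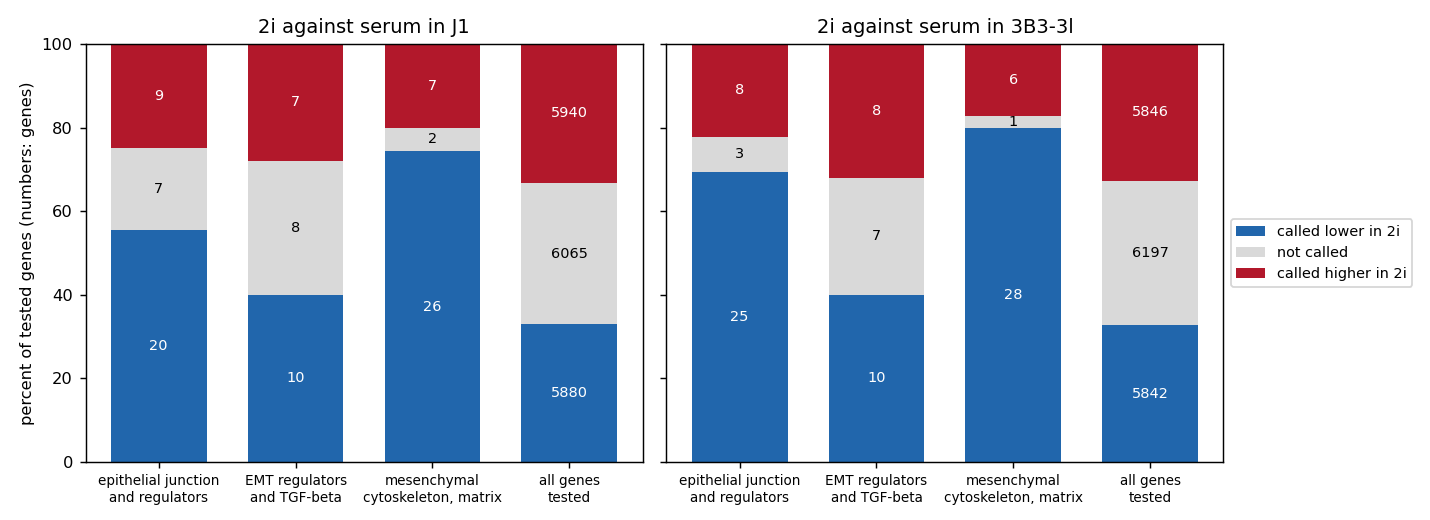
Percent of tested genes called lower (blue), not called (grey) and called higher (red) in 2i against serum in J1 (left) and 3B3-3l (right), for 3 gene lists and for all genes tested, with numbers of genes in the bars. Of the mesenchymal list, 26 of 35 genes in J1 and 28 in 3B3-3l were lower in 2i, against 32.9% and 32.7% of all genes.

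Between lines, 19 of the 35 mesenchymal genes were higher and 4 lower in 3B3-3l in serum, and 12 were higher and 12 lower in 2i. The shares of all tested genes were 21.5% higher with 17.2% lower in serum, and 23% with 22.9% in 2i. Genes named here as highest or lowest are so among called genes of their list with at least 10 CPM in the higher group. Col5a2, a fibrillar collagen gene (1.06 ± 0.12, adjusted p = 6.59e-06 by edgeR), and Loxl2, a lysyl oxidase gene (1.02 ± 0.12, adjusted p = 5.29e-06 by edgeR), were the highest in serum, and Itgb1, integrin beta 1, the lowest (-0.41 ± 0.05, adjusted p = 2.61e-05 by edgeR). In 2i they were Ddr2 (1.62 ± 0.11, adjusted p = 1.73e-08 by edgeR) and Nes, the gene of nestin (0.73 ± 0.07, adjusted p = 4.03e-07 by edgeR), with Mmp14, a matrix metalloprotease gene, the lowest (-0.84 ± 0.06, adjusted p = 2.94e-08 by edgeR). Of the epithelial list, 14 genes were higher and 10 lower in 3B3-3l in serum, led by Krt18 (1.13 ± 0.09) and Dsp (0.98 ± 0.07), with Esrp2 lowest (-1.04 ± 0.08). In 2i, 10 were higher and 15 lower, with the desmosomal gene Pkp2 lowest (-0.999 ± 0.06, adjusted p = 4.21e-09 by edgeR). Of the EMT regulators, 7 were higher and 3 lower in serum (5 called in all without 3B3-3l serum replicate 3) and 10 higher and 3 lower in 2i. The shares called were 40% in serum, beside 38.7% of all genes, and 52% in 2i, beside 45.9%. Hmga2, a chromatin architectural protein gene, was the highest in both (serum 0.86 ± 0.08, adjusted p = 1.15e-06 by edgeR, and 2i 2.19 ± 0.09, adjusted p = 4.4e-11 by edgeR).

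Markers of the primitive streak moved in both directions with the medium. Of 9 tested, 4 were higher and 4 lower in 2i in J1, and 4 higher and 3 lower in 3B3-3l. For these and the endoderm markers below, the shares of all genes were 33.2% higher and 32.9% lower in J1. In 3B3-3l they were 32.7% in each direction. The summed level over 10 genes, most of it from T and Eomes in 2i, was 6.83 to 8.02 CPM in J1 serum and 40.4 to 46.0 in J1 2i, and 8.49 to 9.55 and 28.5 to 30.1 in 3B3-3l. The defining marker T had means of 0.761 CPM in serum and 13.2 CPM in 2i in J1 and of 1.31 and 8.01 CPM in 3B3-3l. Eomes had 2.86 and 28.1 CPM in J1 and 3.55 and 18.6 CPM in 3B3-3l, while Mixl1 and Mesp1 stayed under 1 CPM in all groups. Wnt3 fell, with log2 fold changes of -1.65 ± 0.28 in J1 (adjusted p = 8.9e-05 by edgeR) and -1.71 ± 0.29 in 3B3-3l (adjusted p = 7.07e-05 by edgeR), as did Fgf8, with -2.65 ± 0.32 (adjusted p = 2.66e-06 by edgeR) and -2.85 ± 0.28 (adjusted p = 2.34e-07 by edgeR). Markers of the primitive endoderm together ranged from 333 to 377 CPM in J1 serum and 214 to 235 in J1 2i, and from 419.5 to 428 and 199.9 to 201 in 3B3-3l. Of 11 tested, 3 were higher and 5 lower in 2i in J1, and 8 were lower and 3 not called in 3B3-3l. Lamb1 had means of 162 CPM in J1 serum and 24.3 in J1 2i, and 195 and 46.8 in 3B3-3l, while Lama1 had 109 and 179 in J1 and 137 and 135 in 3B3-3l. Of the defining markers, Gata4 had means of 2.23 and 4.13 CPM in J1, higher in 2i (0.89 ± 0.14, adjusted p = 4.74e-05 by edgeR), and of 3.40 and 4.21 in 3B3-3l, not called (0.31 ± 0.14, adjusted p = 0.058 by edgeR). Gata6 and Sox17 did not exceed a group mean of 1.06 CPM. Between lines in serum, 9 of the 11 endoderm markers were called higher in 3B3-3l and 0 lower, with a median log2 fold change of 0.83. The shares of all genes there were 21.5% and 17.2%. In 2i, 4 were higher and 3 lower in 3B3-3l, beside 23% and 22.9% of all genes. The part of other cell types in the differences of Vim, Fn1, Cdh2, Epcam and the transcription factor genes was not tested.

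Transcript shares within a gene were compared where at least 80% of the gene's reads in every library could be assigned and a transcript held at least 5% in a group. Cdh1-001 held 94.4% ± 1.17 of Cdh1 in J1 serum and 97.3% ± 0.863 in J1 2i, and 97.0% ± 1.14 and 97.7% ± 0.657 in 3B3-3l (SD, n = 3). Cdh2 was split between Cdh2-003, with 70.1% to 74.1% in the group means, and Cdh2-001, with 25.8% to 29.9%. Vim held 2 retained-intron transcripts beside Vim-001, which had 44.7% to 52.9% in the group means. Of these 2, Vim-004 (520 bases) had 38.7% to 42.7%. Vim-002 stood at 13.1% ± 0.586 in J1 serum and had means of 5.83% to 7.69% in the other groups. In 3B3-3l serum the Vim-002 share ranged from 2.99% to 13.3% over the libraries, overlapping J1 serum (12.7% to 13.8%). None of the 6 shares passed the test between media or between lines after adjustment (exact two-sided permutation within strata, smallest adjusted p = 0.18 for medium and 0.27 for line). Cdh1-001 was 1.84 percentage points higher in 2i (unadjusted exact permutation p = 0.03), and 0.826 points by shares of reads (exact permutation p = 0.1). By reads the smallest unadjusted p for medium was 0.065, for Vim-002 (-2.63 points, exact permutation).

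For the 6 genes with at least 10 CPM in a group, the genes whose profile lay closest over the 12 libraries were found among 9988 candidates. Epcam lay closest to Tmem98 (r = 0.997) and Dmrt1 (0.994), Vim to Bcar3 (0.994) and Cd63 (0.980), and Fn1 to Ankhd1 (0.982) and Gm14420 (0.977). Cdh1 lay closest to 2310035C23Rik (0.964) and Polr2a (0.973), Cdh2 to Enox1 (0.979) and BC016423 (0.975), and Zeb1 to Usp24 (0.980) and Trim44 (0.974). Genes were picked by the smallest Euclidean distance between log2 CPM profiles centred on each gene's mean, and not by r. The values printed are Pearson correlations over 12 libraries that share their medium and line, given as a description.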

How the data were processed

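RNA-seq libraries were prepared with a stranded poly(A) kit by the authors, who ran Sailfish with a stranded setting on mm10 transcript models and summarised the estimates with tximport. Their methods name RefSeq models, and the deposited tables carry Ensembl identifiers. The gene table deposited by the authors holds estimated counts per gene. The transcript tables deposited by the authors hold TPM and estimated counts per transcript. TPM was used only as an alternative and within a gene, since transcripts with an effective length under 50 bases took 18.8% to 50.2% of it.

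Counts were rounded, filtered with filterByExpr and scaled with TMM (factors 0.97 to 1.038) in edgeR 4.0.16 (R 4.3.3). CPM values use these library sizes, except levels in CPM per kb, which use library totals without TMM factors. The 12 libraries entered a single quasi-likelihood fit with a term for each group. There were 5 contrasts, tested two-sided over 17885 genes, and a call needed a p under 0.05 after Benjamini-Hochberg adjustment. Log2 fold changes are given with standard errors. For edgeR these were computed as the absolute log2 fold change divided by the square root of the quasi-likelihood F. The labels call the replicates biological but do not say how their cultures were separated, so p-values measure the spread between these samples. Named list genes were, in each contrast of 2 groups, the 2 highest and the 2 lowest called genes by fold change at 10 CPM or more in the higher group, of which a selection is printed. The genes, lists and tests were chosen with earlier results of these data known. Alternatives were DESeq2 1.42.0, its size factors, other filters, fewer libraries, a replicate block, length offsets and leaving out each library. The code was tested on simulated data. The sequencing pool of each library is not given in the sources used here.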

Additional observations from a re-analysis of the deposited data

Results flagged for a closer look

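The response to 2i differed between the lines, by a direct edgeR test of the difference, for 5 of the 10 genes. The same test called 34.7% of all genes. As only J1 in serum was grown on feeders, line and feeders cannot be told apart in this test. The 2i effect in 3B3-3l minus that in J1 was 0.53 on the log2 scale for Cdh1 (edgeR adjusted p = 4.72e-05) and 0.92 for Cdh2 (edgeR adjusted p = 0.000127). It was -0.74 for Vim (edgeR adjusted p = 1.02e-05), -1.01 for Snai2 (edgeR adjusted p = 0.0497) and -0.48 for Zeb1 (edgeR adjusted p = 0.00517). The differences for Cdh1, Cdh2 and Vim stayed called under all 18 alternatives. That for Snai2 was lost under 15 of 18, with edgeR or DESeq2 adjusted p between 0.0293 and 0.133, and that for Zeb1 was lost with transcript length offsets.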

How the results depend on the processing

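Over the alternatives, the number of the 10 genes called between lines in 2i ranged from 3 to 7 when 1 library was left out, against 7 with all 12. The number with a called difference between the 2i effects was 3 with transcript length offsets, against 5. EMT regulators called between lines in serum ranged from 5 to 11 when 1 library was left out, against 10, with 5 without 3B3-3l serum replicate 3. The ratio of Cdh1 to Cdh2 in 3B3-3l serum was 49.5 from gene counts with no length correction, against 46.9. The cause of these shifts was not tested.

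Signs changed for values that were not called. Vim between lines in 2i was -0.00097 with DESeq2 size factors and with the DESeq2 Wald test, -0.0091 with no filter, -0.021 with at least 10 counts in every library, -0.0078 with only the 6 libraries compared, and between -0.0375 and 0.0799 when 1 library was left out. When 1 library was left out, Snai2 in 3B3-3l ranged from -0.263 to 0.0833 and the Fn1 difference between the 2i effects from -0.0586 to 0.108. The share of Vim-001 by medium ranged from -0.41 to 3.07 percentage points, and that of Vim-004 by line from -0.80 to 0.68, when 1 library was left out.

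Same-numbered replicates did not deviate together (r from -0.0961 to 0.0483 over 18 pairs), so the numbers were not treated as pairs. With a replicate block, 8 of the 10 genes were called in J1, 7 in 3B3-3l, 4 between lines in serum, 6 between lines in 2i and 4 in the difference. The block ended the calls of Cdh1 in J1 (edgeR adjusted p = 0.0621), Fn1 between lines in 2i (0.072) and the Snai2 difference (0.0743). Counts of 14 to 37 limit Snai2, and counts of 13 to 64 limit Twist1.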
